A study of Vitis vinifera with 16 samples.

Results

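The region described here is the run of gene identifiers on grapevine chromosome 18 that holds a large terpene synthase array, with the unplaced scaffold that carries a 1,8-cineole synthase. Its members were chosen by identifier alone, as every row from VIT_18s0001g04030 to VIT_18s0001g05480 by the number after g, both ends included, and every row beginning VIT_00s0372g. The rule gave 134 of the 30661 genes in the table, 126 of them from the chromosome 18 run and 8 from the scaffold. The 00 in an identifier marks sequence of the 12X assembly of cv. Pinot noir PN40024 that is not placed on a chromosome. The study names the product of 1 member, VIT_00s0372g00040, as a chloroplast 1,8-cineole synthase. The products of the other 133 were not analysed here, so they are called by identifier, and some of them may not be terpene synthases.

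Terpene synthases turn prenyl diphosphates into the carbon skeletons of monoterpenes, sesquiterpenes and diterpenes. Grapevine carries an unusually large family of them, much of it in tandem arrays of close copies, and its products include aroma compounds of flowers and berries and volatiles that leaves release after wounding or attack. A 1,8-cineole synthase forms the monoterpene ether 1,8-cineole from geranyl diphosphate in the plastid.

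Leaves of cv. Garnacha Blanca, a white-berried grapevine grafted on rootstock 110R and grown in a greenhouse, were sampled 24 h after spraying. The groups were Akivi at 0.521 g/L (Aki), a formulated botanical extract of Dittrichia viscosa, lyophilized Bacillus UdG (BL), the same bacterium as a fresh culture (BF), and the non-treated control (NTC). NTC plants were sprayed with water, which was also the solvent of the other treatments. Per the study's methods, the lyophilized cells were mixed with skimmed milk and the fresh cells were concentrated in culture supernatant. The recipe of the growth medium also differed between BL and BF. No group received these carriers without the bacterium, so bacterium and carrier cannot be told apart. There were 4 biological replicates (R1 to R4) in each of the 4 groups, each one pooled from 2 leaves of each of 5 plants, and all 16 libraries came from 1 cultivar. The plants of each treatment stood in a block of their own, so treatment and block cannot be told apart, and the leaf identity of the samples was not checked against marker genes.

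Libraries held 11078501 to 16991936 fragments assigned to genes, and 3 fragments on a gene of 1 kb corresponded to 0.177 to 0.271 FPKM (fragments per kilobase of gene, scaled to the fragments assigned in the library). The study left out Aki_R1, BL_R1, BF_R1 and NTC_R3 because they did not cluster with their groups in expression. Fold changes and tests therefore rest on the 12 retained libraries, 3 per group, and values with all 16 are added where a call over NTC was lost or gained. BF_R1 was the lowest of the 16 libraries for 25 of the 67 members tested, which is 37.3% of them, against 31.0% of all genes tested, and the part of library composition in this was not tested.

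The primers that the study designed for VIT_00s0372g00040 are shown because they are the printed sequence of the member with the largest change. Both are 20 bases long with 11 G or C, and the capitals mark the 5 bases at the 3′ end, where extension starts.
VIT_00s0372g00040 forward primer: caaggcacagatggaTGGGT
VIT_00s0372g00040 reverse primer: gcagcatctccttctGGTGT

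Many members of the region were silent in these leaves and a few carried much of its summed FPKM. Of the 134 members, 46 were listed at 0 in every library (34.3%, against 17.5% of all genes), 65 were above 0 in every library and 62 had a mean of at least 1 FPKM (46.3%, against 58.3% of all genes). Means of at least 10 FPKM were reached by 34 members (25.4%, against 31.8%), of at least 50 FPKM by 6 and of at least 100 FPKM by 3. The silent and near-silent members were scattered along the run, and the longest stretches of neighbours under 0.5 FPKM in every library were 5 identifiers each, VIT_18s0001g04200 to VIT_18s0001g04260 and VIT_18s0001g04800 to VIT_18s0001g04850. Only uniquely mapping fragments were counted, so a near-identical copy can be listed at 0 while it is transcribed.

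**Figure D1:**
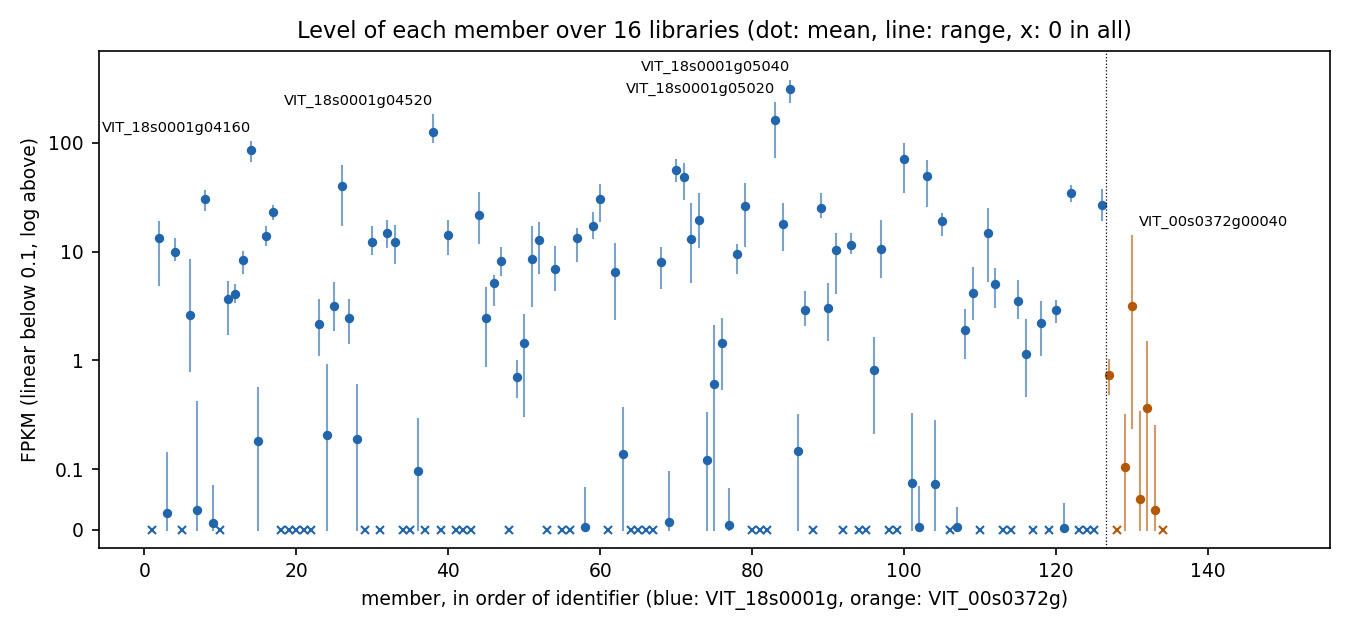
FPKM of the 134 members in order of identifier, on an axis that is linear below 0.1 and logarithmic above. Dots are means over 16 libraries, lines run between the lowest and the highest library, and crosses mark the 46 members at 0 in every library. Expressed and silent members alternate along the chromosome 18 run, and VIT_18s0001g05040 stands highest.

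VIT_18s0001g05040 was the most abundant member, with a mean of 314 FPKM and a range over the 16 libraries of 234 to 370 FPKM. VIT_18s0001g05020 followed with a mean of 161 FPKM, VIT_18s0001g04520 with 126 FPKM, VIT_18s0001g04160 with 85.9 FPKM, VIT_18s0001g05220 with 71.1 FPKM and VIT_18s0001g04880 with 55.6 FPKM. The 3 highest supplied between 30.1% and 49.3% of the summed FPKM of the region, depending on the library. Gene lengths can be read back from the FPKM, since each value is a whole number of fragments scaled by length, and for the 88 members above 0 they ranged from 66 to 7605 bases with a median of 1504. The abundant members included short models, at 701 bases for VIT_18s0001g05040, 848 for VIT_18s0001g05020 and 789 for VIT_18s0001g04880. They also included longer ones, at 2109 for VIT_18s0001g04160 and 1886 for VIT_18s0001g05220.

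The summed FPKM of the 134 members was lower in both Bacillus treatments than in the control. It was 1580 to 1747 FPKM in Aki leaves, 1369 to 1498 FPKM in BL leaves and 1444 to 1543 FPKM in BF leaves, against 1592 to 1643 FPKM in NTC leaves. All BL and BF libraries thus lay below all NTC libraries, while Aki leaves overlapped NTC leaves. After rescaling each library by median-of-ratios factors the BL sums, at 1358 to 1430, still lay below the NTC sums of 1558 to 1646, but the BF sums, at 1380 to 1659, overlapped them because of BF_R1. Without VIT_18s0001g05020 the sums were 1295 to 1401 in BL leaves and 1281 to 1380 in BF leaves, against 1366 to 1442 in NTC leaves, and both overlapped NTC. A sum of FPKM weights short genes more than fragments do, and the share of a library's fragments that fell on the members was 0.210% to 0.249% in BL leaves and 0.181% to 0.233% in BF leaves, against 0.226% to 0.250% in NTC leaves. By fragments, both Bacillus treatments overlapped the control. In leaf samples of mixed cells, fewer cells of a type and less RNA per cell cannot be told apart.

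For the tests, 67 members reached 0.5 FPKM in 3 or more retained libraries, and 59 of them did so in all 12. Of the other 67 members, 46 were at 0 throughout and 21 had traces, together 16 to 57 fragments per library. VIT_00s0372g00070 passed the filter through Aki leaves alone, so it had to differ between groups. Tests were made with limma on log2(FPKM + 0.1), a scale that understates the changes of low genes, with Benjamini-Hochberg adjustment over all 20078 genes tested. Genes were called DEGs at a Log2(FC) of 1.4 or more in size with an adjusted p up to 0.05.

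Aki was the treatment with the largest single change in the region, and it lay on the unplaced scaffold. Against NTC, 2 of the 67 tested members were upregulated DEGs (2.99%, against 0.956% of all genes tested) and 1 was a downregulated DEG (1.49%, against 0.722%). By adjusted p alone 3 were higher (4.48%, against 4.29%) and 3 were lower (4.48%, against 3.63%). The median Log2(FC) was 0.02 over the tested members and -0.01 over all genes tested.

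The cineole synthase VIT_00s0372g00040 had 8.38, 13.8, 7.75 and 8.33 FPKM in Aki_R1 to Aki_R4, against 0.773, 2.56, 3.19 and 1.17 FPKM in NTC_R1 to NTC_R4. All 4 Aki libraries lay above all 4 NTC libraries, and the spread within NTC leaves was itself wide. In the retained libraries the means were 9.96 ± 3.34 FPKM in Aki leaves and 1.5 ± 0.937 FPKM in NTC leaves (SD, n = 3 each). The Log2(FC) was 2.76 ± 0.39 (SE), a 6.78-fold higher level, with a limma adjusted p of 0.00208, and with all 16 libraries it was 2.41 ± 0.40 with an adjusted p of 0.00554. The study picked this gene as a candidate marker of Aki treatment from these same libraries, so its rise here is not independent evidence. By RT-qPCR and its own fold-change threshold, the study classed the gene as upregulated in Garnacha Blanca but not in Garnacha Tinta or Macabeo. In Garnacha Tinta the study marked a statistically significant rise that stayed below that threshold. The gene was not among the markers that the study proposed for all cultivars tested.

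In both Bacillus treatments the same gene lay at the low end. It had 0.734, 0.374, 0.524 and 0.526 FPKM in BL_R1 to BL_R4, which are 19, 7, 10 and 10 fragments. It had 0.240, 0.667, 0.466 and 0.807 FPKM in BF_R1 to BF_R4, which are 5, 15, 8 and 17 fragments. Every BL library lay below every NTC library, whereas BF_R4 exceeded NTC_R1. The Log2(FC) over NTC was -1.33 ± 0.39 in BL leaves (limma adjusted p = 0.0307) and -0.97 ± 0.39 in BF leaves (limma adjusted p = 0.118). The adjusted p in BL leaves lay between 0.0127 and 0.117 over the 24 alternatives and was above 0.05 in 8 of them, among them each fit without BL_R2, BL_R3, BL_R4, NTC_R2 or NTC_R4. With all 16 libraries both passed, at -1.49 with an adjusted p of 0.0166 in BL leaves and -1.54 with an adjusted p of 0.0136 in BF leaves. The treatments share their NTC libraries, so these comparisons are not independent of one another.

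Set directly against the Bacillus treatments, Aki leaves held far more of the cineole synthase. The Log2(FC) was 4.09 ± 0.39 for Aki over BL, a 17.1-fold higher level with a limma adjusted p of 4.1e-05, and 3.73 ± 0.39 for Aki over BF, a 13.3-fold higher level with an adjusted p of 7.15e-05. Under the 24 alternatives the values ran from 2.85 to 4.33 for Aki over BL and from 2.70 to 3.96 for Aki over BF, all past the threshold.

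VIT_00s0372g00070, on the same scaffold, was the other member seen mainly in Aki leaves. It had 0.704, 1.49, 0.727 and 0.843 FPKM in Aki_R1 to Aki_R4, 19 to 32 fragments each, against 0.320, 0.197, 0.30 and 0.0737 FPKM in NTC_R1 to NTC_R4. In BL leaves it ranged from 0.0420 to 0.372 FPKM and in BF leaves from 0 to 0.140 FPKM. No library outside Aki reached the lowest Aki library. The Log2(FC) of Aki leaves was 1.95 over NTC, 1.91 over BL and 2.32 over BF, given as a description with no test because the gene entered the tested set through Aki leaves.

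The remaining scaffold members were low and did not separate the groups. VIT_00s0372g00010 ranged from 0.492 to 1.00 FPKM over the 16 libraries and had a Log2(FC) of -0.20 ± 0.30 in Aki leaves, -0.21 ± 0.30 in BL leaves and -0.42 ± 0.30 in BF leaves over NTC. VIT_00s0372g00030, VIT_00s0372g00060 and VIT_00s0372g00080 had 11, 8 and 4 fragments over all 16 libraries, too few for a comparison. VIT_00s0372g00020 and VIT_00s0372g00100 were listed at 0 in every library.

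VIT_18s0001g04910 was the second member upregulated by Aki. It had 18.9, 27.6, 25.8 and 20.6 FPKM in Aki_R1 to Aki_R4, against 8.92, 9.46, 20.4 and 9.21 FPKM in NTC_R1 to NTC_R4. The single high control library was NTC_R3, one of the 4 that the study left out, and it lay inside the Aki range. With the retained libraries the Log2(FC) was 1.4 ± 0.14 (limma adjusted p = 0.000339), at the very threshold of 1.4 for a DEG. Over the 24 alternatives it ran from 1.03 to 1.53. With all 16 libraries it was 1.03 ± 0.24 (adjusted p = 0.0501) and no longer passed. A fit that adds NTC_R3 alone to the retained libraries was not made. The gene had 8.68 to 11.5 FPKM in BL leaves and 5.26 to 8.87 FPKM in BF leaves. All Aki libraries lay above them, with a Log2(FC) of 1.23 ± 0.14 over BL (adjusted p = 0.000103) and 1.57 ± 0.14 over BF (adjusted p = 1.97e-05), and both passed with all 16 libraries as well, at 1.20 and 1.63.

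**Figure D2:**
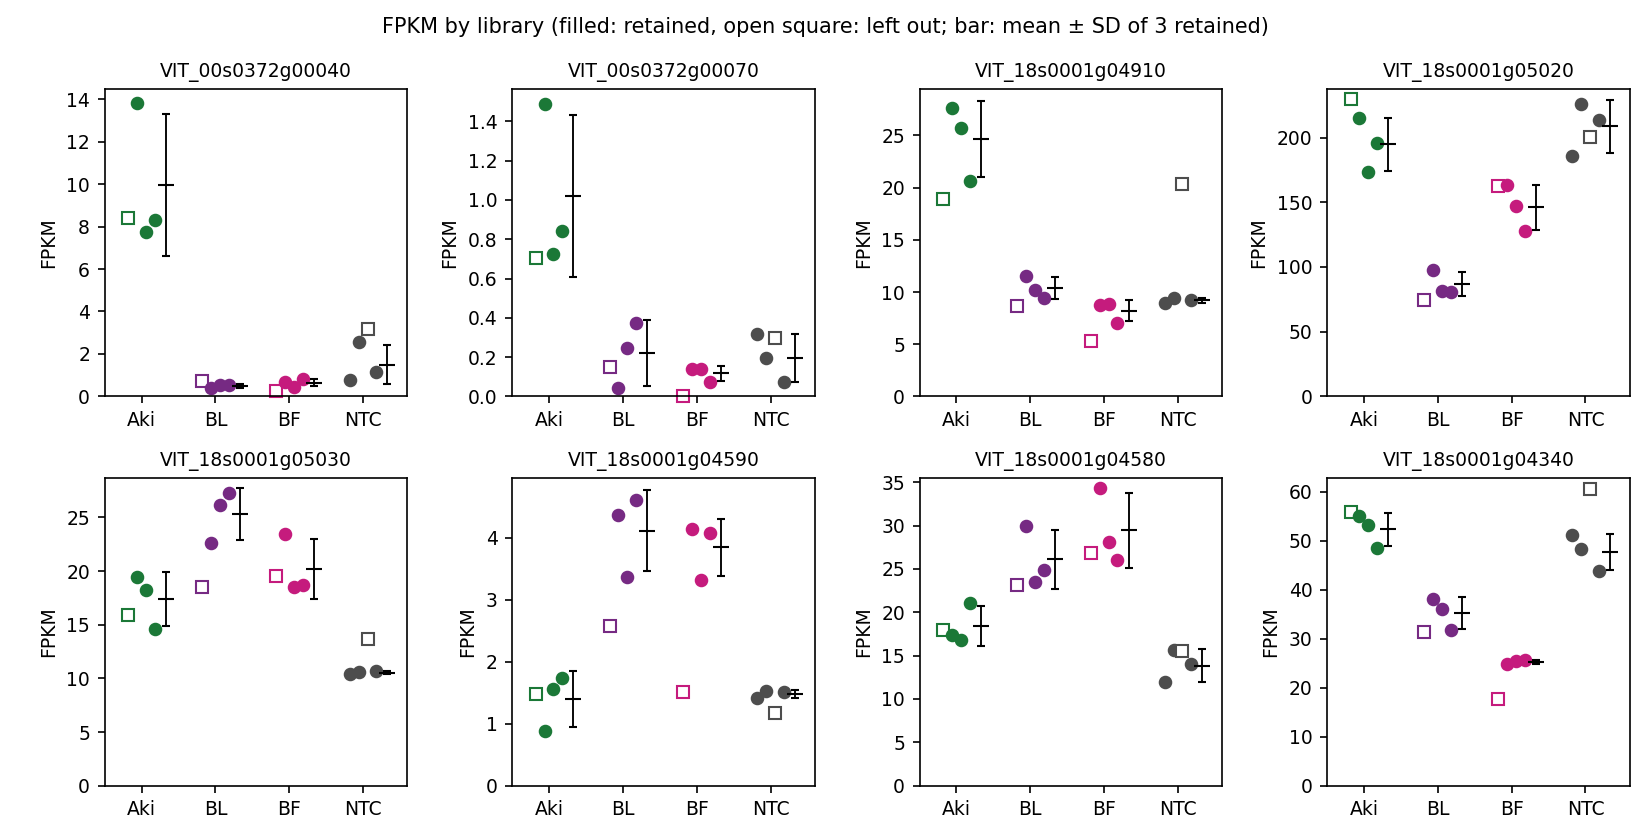
FPKM of 8 members in each library of Aki, BL, BF and NTC, on linear axes that start at 0. Filled points are retained libraries, open squares the library left out of each group, and bars the mean ± SD of the 3 retained libraries. VIT_00s0372g00040 stands between 7.75 and 13.8 FPKM in Aki leaves and at or under 3.19 FPKM elsewhere, while NTC_R3 reaches 20.4 FPKM for VIT_18s0001g04910.

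The downregulated DEG of Aki leaves, VIT_18s0001g05160, was a low and variable member. It had 0.8287, 0.347, 0.236 and 0.564 FPKM in Aki_R1 to Aki_R4, against 1.59, 0.916, 0.217 and 1.44 FPKM in NTC_R1 to NTC_R4. NTC_R3 was lower than every Aki library. The Log2(FC) was -1.57 ± 0.38 (limma adjusted p = 0.0274) with the retained libraries and -0.79 ± 0.49 (adjusted p = 0.633) with all 16, and the call was also lost without Aki_R2, Aki_R3, NTC_R1 or NTC_R4, at adjusted p values between 0.0716 and 0.112. VIT_18s0001g05180 (-1.02 ± 0.20, adjusted p = 0.0112) and VIT_18s0001g05480 (-0.54 ± 0.12, adjusted p = 0.0209) were lower by adjusted p alone, and with all 16 libraries neither passed (adjusted p = 0.518 and 0.627). NTC_R3 was the lowest control library of both, at 7.28 FPKM for VIT_18s0001g05180 against 11.3 to 19.0 FPKM in the other NTC libraries, and at 22.5 FPKM for VIT_18s0001g05480 against 27.9 to 36.5 FPKM. These 2 members lie outside the rule for named genes and were picked after their values were seen.

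VIT_18s0001g05030 was the sixth member past the adjusted p in Aki leaves, and it was higher in all 3 treatments. It had 15.9, 19.4, 18.2 and 14.6 FPKM in Aki_R1 to Aki_R4, 18.6, 22.6, 26.2 and 27.3 FPKM in BL_R1 to BL_R4 and 19.5, 23.4, 18.5 and 18.7 FPKM in BF_R1 to BF_R4, against 10.4, 10.6, 13.6 and 10.7 FPKM in NTC_R1 to NTC_R4. Every treated library lay above every NTC library. The Log2(FC) was 0.71 ± 0.13 in Aki leaves (limma adjusted p = 0.00744), 1.25 ± 0.13 in BL leaves (adjusted p = 6.52e-05) and 0.92 ± 0.13 in BF leaves (adjusted p = 0.000573). The fit of all 16 libraries gave an Aki value of 0.59 with an adjusted p of 0.0578, and the Bacillus values passed at 1.05 and 0.82.

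When all 16 libraries were fitted, 1 member was an upregulated DEG of Aki over NTC (1.49%, against 0.375% of all genes tested), which was VIT_00s0372g00040, and none was a downregulated DEG by limma (0.00494% of all genes tested). By adjusted p alone the counts were 1 higher (0.820% of all genes tested) and none lower (0.109%), with 7 members at an unadjusted p under 0.05. In that fit BL had 0 upregulated (1.5% of all genes tested) and 1 downregulated DEG (1.49%, against 1.09%), and BF had 0 upregulated (1.26%) and 1 downregulated DEG (1.49%, against 1.01%), in both cases VIT_00s0372g00040.

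Lyophilized Bacillus (BL) gave shares of higher and lower members near those over all genes. Against NTC, 1 member was an upregulated DEG (1.49%, against 1.98% of all genes tested) and none was a downregulated DEG (1.85% of all genes tested), with 20 members at an unadjusted p under 0.05. By adjusted p alone 7 members were higher (10.4%, against 11.5%) and 8 were lower (11.9%, against 8.16%). The median Log2(FC) was 0.01 over the tested members and 0.05 over all genes tested. Of these 15 members 11 also passed with all 16 libraries, and 2 passed with all 16 alone, VIT_18s0001g04380 at -0.63 (limma adjusted p = 0.0496) and VIT_18s0001g04420 at -0.36 (adjusted p = 0.0437), both picked after their values were seen.

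The upregulated DEG of BL leaves was VIT_18s0001g04590, with 2.58, 4.37, 3.37 and 4.60 FPKM in BL_R1 to BL_R4, against 1.41, 1.53, 1.18 and 1.51 FPKM in NTC_R1 to NTC_R4. The groups did not overlap. The Log2(FC) was 1.4 ± 0.25 (limma adjusted p = 0.00210), at the very threshold of 1.4. It stayed past the adjusted p under all 24 alternatives, with values from 1.03 to 1.53, and was no longer a DEG without BL_R2 or BL_R4, with all 16 libraries, with a pseudocount of 1 FPKM or after median-of-ratios rescaling. In BF leaves it had 1.51, 4.15, 3.32 and 4.07 FPKM and a Log2(FC) of 1.31 ± 0.25 over NTC (adjusted p = 0.00370), with BF_R1 inside the NTC range. In Aki leaves it had 0.880 to 1.74 FPKM, and the Log2(FC) was -1.54 ± 0.25 for Aki over BL (adjusted p = 0.00150) and -1.45 ± 0.25 for Aki over BF (adjusted p = 0.00206).

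The neighbouring identifier VIT_18s0001g04580 and 4 others were higher in both Bacillus treatments. VIT_18s0001g04580 had 23.1, 30.0, 23.5 and 24.9 FPKM in BL leaves and 26.8, 34.3, 28.1 and 26.0 FPKM in BF leaves, against 11.9, 15.7, 15.6 and 14.0 FPKM in NTC leaves, R1 to R4 in each. No Bacillus library overlapped the control, and the Log2(FC) was 0.91 ± 0.15 in BL leaves (limma adjusted p = 0.00106) and 1.08 ± 0.15 in BF leaves (adjusted p = 0.000410). VIT_18s0001g04270 had a Log2(FC) of 1.01 ± 0.21 in BL leaves and 1.04 ± 0.21 in BF leaves, VIT_18s0001g04540 of 0.76 ± 0.12 and 0.69 ± 0.12, VIT_18s0001g04700 of 0.87 ± 0.19 and 0.63 ± 0.19, and VIT_18s0001g04100 of 0.43 ± 0.09 and 0.39 ± 0.09. Their limma adjusted p values ran from 0.00105 to 0.0067 in BL leaves and from 0.00228 to 0.0376 in BF leaves. With all 16 libraries the BF rises of VIT_18s0001g04540 and VIT_18s0001g04700 no longer passed, at adjusted p values of 0.0853 and 0.0867.

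These Bacillus-responsive members were not higher in Aki leaves beyond the threshold. VIT_18s0001g04580 had 16.8 to 21.0 FPKM in Aki leaves, above all NTC libraries and below all Bacillus libraries, with a Log2(FC) of 0.41 ± 0.15 over NTC (limma adjusted p = 0.112). Over BF it was -0.68 ± 0.15 (adjusted p = 0.00775), and over BL it was -0.50 ± 0.15 (adjusted p = 0.0343, above 0.05 in 7 of 24 alternatives). VIT_18s0001g04270 had 1.43 to 1.81 FPKM in Aki leaves, with a Log2(FC) of -0.81 ± 0.21 over BL (adjusted p = 0.0229) and -0.84 ± 0.21 over BF (adjusted p = 0.0188). VIT_18s0001g04540 had a Log2(FC) of 0.35 ± 0.12 for Aki over NTC (limma adjusted p = 0.0997). Its retained Aki libraries all lay above the retained NTC libraries, but the groups overlapped with all 16. For Aki over NTC, VIT_18s0001g04270 had 0.20 ± 0.21, VIT_18s0001g04700 had 0.23 ± 0.19 and VIT_18s0001g04100 had 0.05 ± 0.09.

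**Figure D3:**
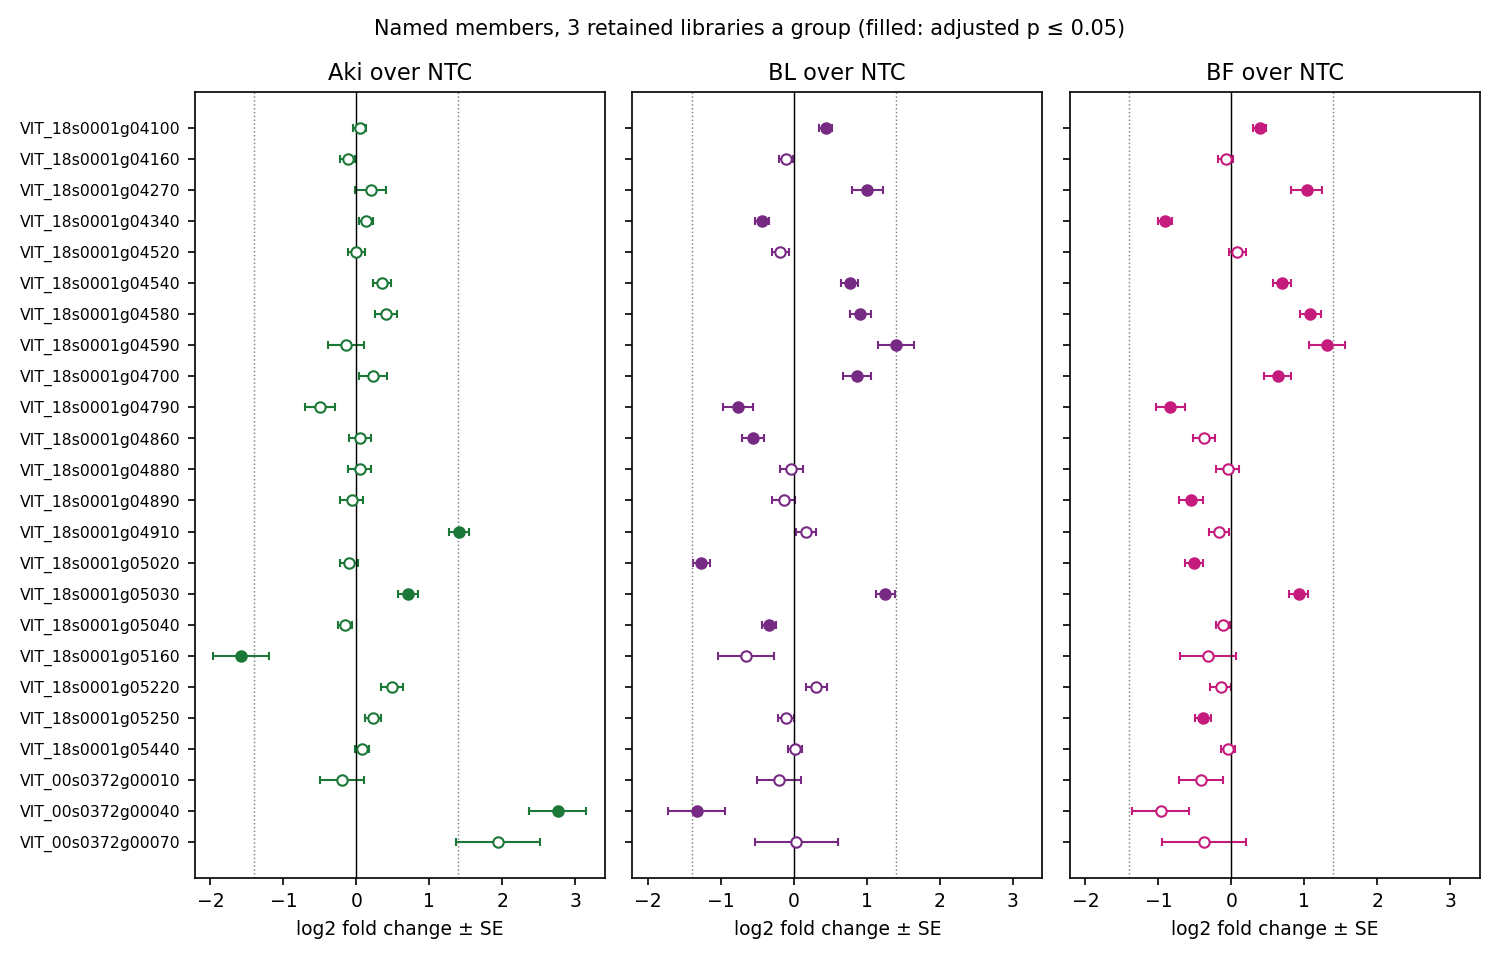
Log2(FC) ± SE over NTC of the 24 named members that passed the filter, in Aki, BL and BF leaves, from the 3 retained libraries of each group. Filled points passed a limma adjusted p of 0.05 and dotted lines mark a Log2(FC) of 1.4 in size. VIT_00s0372g00040 stands at 2.76 in Aki leaves and -1.33 in BL leaves, and VIT_18s0001g05020 at -1.27 in BL leaves.

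Among the members that were lower, the second most abundant of the region changed most in BL leaves by adjusted p. VIT_18s0001g05020 had 74.5, 97.7, 81.6 and 80.8 FPKM in BL_R1 to BL_R4 and 163, 163, 147 and 128 FPKM in BF_R1 to BF_R4, against 186, 226, 201 and 214 FPKM in NTC_R1 to NTC_R4. BL, BF and NTC libraries did not overlap, with BL lowest and BF between. The Log2(FC) over NTC was -1.27 ± 0.12 in BL leaves (limma adjusted p = 3.93e-05) and -0.52 ± 0.12 in BF leaves (adjusted p = 0.0127, and 0.0503 without NTC_R4). In Aki leaves it had 174 to 230 FPKM, with a Log2(FC) of -0.10 ± 0.12 over NTC and 1.17 ± 0.12 over BL (adjusted p = 7.68e-05).

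Next to it in the numbering, VIT_18s0001g05030 went up and VIT_18s0001g05040 moved little. VIT_18s0001g05040 had 234 to 311 FPKM in BL leaves, against 309 to 355 FPKM in NTC leaves, and a Log2(FC) of -0.34 ± 0.10 (limma adjusted p = 0.0262), which was lost with all 16 libraries (adjusted p = 0.108). In Aki and BF leaves its Log2(FC) over NTC was -0.15 ± 0.10 and -0.12 ± 0.10. Consecutive identifiers of the run thus differed in direction within 1 treatment, with -1.27, 1.25 and -0.34 in BL leaves for VIT_18s0001g05020, VIT_18s0001g05030 and VIT_18s0001g05040. Whether these neighbours are related genes was not analysed.

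VIT_18s0001g04340 was lower in both Bacillus treatments and lowest in BF leaves. It had 31.4, 38.1, 35.9 and 31.7 FPKM in BL_R1 to BL_R4 and 17.6, 24.8, 25.5 and 25.5 FPKM in BF_R1 to BF_R4, against 51.1, 48.3, 60.6 and 43.7 FPKM in NTC_R1 to NTC_R4. The 3 groups did not overlap. The Log2(FC) over NTC was -0.44 ± 0.09 in BL leaves (limma adjusted p = 0.00691) and -0.91 ± 0.09 in BF leaves (adjusted p = 6.91e-05), and both passed under all 24 alternatives. Aki leaves, at 48.6 to 55.8 FPKM, lay within the NTC range, above BF with a Log2(FC) of 1.04 ± 0.09 (adjusted p = 2.66e-05).

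The other lower members moved by less than 1 on the log2 scale. VIT_18s0001g04790 had a Log2(FC) over NTC of -0.76 ± 0.20 in BL leaves (limma adjusted p = 0.0190, above 0.05 in 6 of 24 alternatives and 0.0779 with all 16 libraries) and -0.84 ± 0.20 in BF leaves (adjusted p = 0.0141, above 0.05 in 4 of 24). VIT_18s0001g04860 had -0.56 ± 0.15 in BL leaves (adjusted p = 0.0198, above 0.05 in 3 of 24) and -0.37 ± 0.15 in BF leaves (adjusted p = 0.122). VIT_18s0001g04890 had -0.14 ± 0.16 in BL leaves (adjusted p = 0.593) and -0.55 ± 0.16 in BF leaves (adjusted p = 0.0327, above 0.05 in 7 of 24). VIT_18s0001g05250 had -0.10 ± 0.11 in BL leaves (adjusted p = 0.555) and -0.39 ± 0.11 in BF leaves (adjusted p = 0.0309, above 0.05 in 7 of 24). Of the members outside the rule for named genes, VIT_18s0001g05180 had -0.70 ± 0.20 in BL leaves (adjusted p = 0.0285) and VIT_18s0001g05480 had -0.48 ± 0.12 (adjusted p = 0.0168), and neither passed over all 16 libraries, at 0.335 and 0.191. The difference between BL and BF did not pass for any of them with the retained libraries, nor for any of the 20078 genes tested.

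Fresh Bacillus gave no DEG in the region by limma, upregulated (1.59% of all genes tested) or downregulated (1.14%), with 20 of the 67 members at an unadjusted p under 0.05. A fit of fragments rebuilt from the FPKM with voom weights also gave 0. By adjusted p alone 8 members were higher (11.9%, against 9.89% of all genes tested) and 5 were lower (7.46%, against 5.62%). The median Log2(FC) was -0.05 over the tested members and 0.04 over all genes tested. The eighth higher member, beyond those described, was VIT_18s0001g05310 at 0.80 ± 0.23 (adjusted p = 0.0369), which falls outside the rule for named genes and was picked after its value was seen. Its adjusted p over all 16 libraries was 0.0597. Of the 13 members 10 also passed with all 16 libraries, and 3 passed with all 16 alone. These were VIT_00s0372g00040, VIT_18s0001g04380 at -0.66 (limma adjusted p = 0.0397) and VIT_18s0001g05400 at -0.78 (adjusted p = 0.0175), of which the last 2 were picked after their values were seen.

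The abundant members VIT_18s0001g04160, VIT_18s0001g04520, VIT_18s0001g04880 and VIT_18s0001g05440 passed in no comparison with NTC. Their Log2(FC) over NTC lay between -0.12 and 0.08 in Aki leaves, -0.19 and 0.02 in BL leaves and -0.08 and 0.08 in BF leaves. For VIT_18s0001g04160 the 95% interval of the Log2(FC) was -0.34 to 0.10 in Aki leaves and -0.32 to 0.11 in BL leaves. VIT_18s0001g05220 had 82.2 to 97.7 FPKM in Aki leaves, against 59.8 to 86.4 FPKM in NTC leaves, with a Log2(FC) of 0.49 ± 0.15 that did not pass (limma adjusted p = 0.0631). Over BF leaves, with 35.6 to 65.4 FPKM, it passed at 0.64 ± 0.15 (adjusted p = 0.0119, and 0.0523 at its highest under the alternatives).

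**Figure D4:**
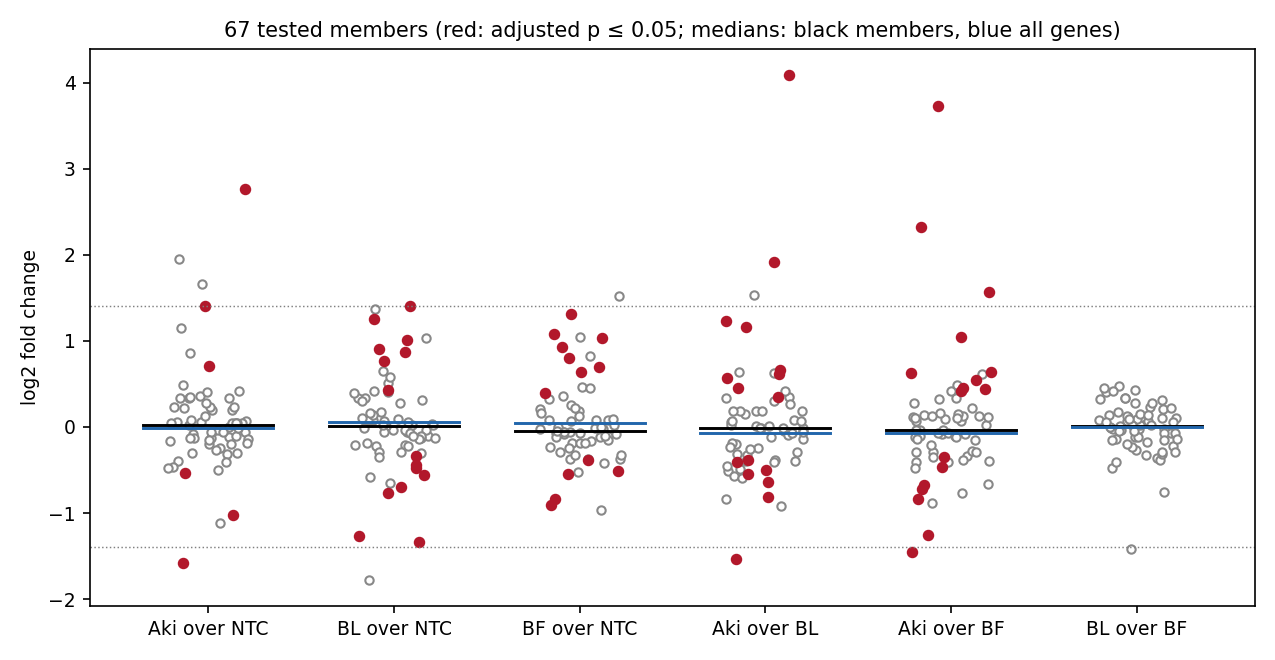
Log2(FC) of the 67 tested members in 6 comparisons of the retained libraries, each point a member, spread sideways at random. Red points passed a limma adjusted p of 0.05, dotted lines mark a Log2(FC) of 1.4 in size, and bars are medians of the members (black) and of all genes tested (blue). Both medians lie within 0.07 of 0 in every comparison, and no member, nor any other gene tested, passed between BL and BF.

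Between treatments, 16 members passed the adjusted p in Aki over BL and 17 in Aki over BF. Aki over BL gave 2 upregulated DEGs (2.99%, against 1.36% of all genes tested) and 1 downregulated DEG (1.49%, against 0.956%), and Aki over BF gave 3 (4.48%, against 1.28%) and 1 (1.49%, against 1.13%). The upregulated DEGs were VIT_00s0372g00040 and VIT_00s0372g00070, and over BF also VIT_18s0001g04910, and the downregulated DEG was VIT_18s0001g04590 in both. VIT_00s0372g00070 passed the filter through Aki leaves alone, so its calls support nothing, and without it there was 1 upregulated DEG over BL and there were 2 over BF. By adjusted p alone 9 members were higher (13.4%, against 6.66%) and 7 lower (10.4%, against 8.79%) in Aki over BL, and 10 higher (14.9%, against 6.04%) and 7 lower (10.4%, against 9.74%) in Aki over BF. The counts of higher members again include VIT_00s0372g00070 and were 8 over BL and 9 over BF without it. These 2 comparisons share the Aki libraries.

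BL and BF leaves were not told apart in the region with the retained libraries. No member passed by limma in either direction, 10 members had an unadjusted p under 0.05, and percent called was 0 for all genes tested too. The voom fit also gave 0 DEGs. The member with the smallest adjusted p was VIT_18s0001g05020, with a Log2(FC) of -0.75 ± 0.12 for BL over BF and a 95% interval of -1.01 to -0.49 (adjusted p = 0.135). Fitted over all 16 libraries it was -0.85 ± 0.11 with an adjusted p of 0.0141, the 1 member lower by adjusted p alone (1.49%, against 0.0445% of all genes tested), and none was higher (0.0889%). VIT_18s0001g04340 had a Log2(FC) of 0.47 ± 0.09 for BL over BF (adjusted p = 0.149).

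Replicates varied within groups about as much in the region as elsewhere. The SD within groups on the log2 scale, over all 16 libraries, had a median of 0.25 over the tested members and 0.26 over all genes tested. It ranged from 0.11 to 1.58 among the members. The most variable was VIT_18s0001g04940, with 2.09, 1.05, 0 and 1.10 FPKM in Aki_R1 to Aki_R4, against 0.721, 0.445, 1.27 and 0.415 FPKM in NTC_R1 to NTC_R4. VIT_18s0001g04080 had 1.18, 1.25, 8.35 and 4.13 FPKM in Aki_R1 to Aki_R4, against 1.28, 1.14, 5.97 and 0.796 FPKM in NTC_R1 to NTC_R4, with a Log2(FC) of 1.66 ± 0.49 that did not pass (limma adjusted p = 0.0615). Both were picked for their spread after their values were seen.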

How the data were processed

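RNA of 16 grapevine leaf libraries was measured by stranded, paired-end sequencing. Per the labels' processing notes and the study's methods, reads were demultiplexed with CASAVA 1.8.2, checked with FastQC 0.10.1, trimmed with BBDuk, mapped with STAR 2.6 on the 12X genome of PN40024, and uniquely mapping reads were assigned to genes by featureCounts 1.6.1. The authors deposited FPKM for 30661 genes and no counts were used here. Members, lists and tests were chosen with earlier results of these data known.

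A single model of the log2(FPKM + 0.1) values was fitted to the 12 retained libraries by limma 3.58.1 (R 4.3.3), with group as its only term and trend and robust moderation. Testing was limited to genes that reached 0.5 FPKM in 3 or more fitted libraries, which gave 20078 genes (20246 with all 16 libraries). All 25310 genes above 0 could be rebuilt as whole fragments (tolerance 0.001), and fragment numbers cover counting error only. The procedure was tested on simulated data. The simulation gave every gene the same spread beyond counting error and changed no low gene. It therefore does not cover variable or low members. Python 3.11.15, pandas 2.3.3, NumPy 2.4.6 and matplotlib 3.10.9 served for tables and figures. Members named are those of VIT_00s0372g above 0, every DEG, members past the adjusted p over NTC in both library sets, and the 10 highest by mean. The alternatives numbered 24: all libraries, 2 pseudocounts, 2 filters, 2 scalings, separate fits, plain moderation, 2 block fits, rebuilt fragments with TMM and voom, and each retained library left out. Lists of terpenoid backbone genes and leaf markers were not analysed here, because 0 identifiers matched the annotation used.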

Additional observations from a re-analysis of the deposited data

Results flagged for a closer look

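Among 105 sets of 4 replicates of the 27 named members, 12 had 1 library apart from the other 3, by a gap whose ratio to the set's range was above Dixon's 95% critical value. Chance sets 1 library apart in about 1 in 20 such sets, and the members share their libraries. That rate does not hold for sets with 3 libraries at 0, whose ratio is 1 whatever the trace. The single-library traces described below are such sets.

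NTC_R3 stood apart in 3 of them. It was high for VIT_18s0001g04910, at 20.4 FPKM against 8.92 to 9.46 FPKM in the other NTC libraries (ratio 0.953), high for VIT_18s0001g05030, at 13.6 against 10.4 to 10.7 FPKM (0.912), and low for VIT_18s0001g04860, at 8.31 against 9.45 to 9.63 FPKM (0.860).

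BF_R1 stood apart in 3 as well, low for VIT_18s0001g04340, at 17.6 against 24.8 to 25.5 FPKM (0.913), low for VIT_18s0001g04540, at 10.8 against 16.7 to 17.3 FPKM (0.895), and high for VIT_18s0001g05040, at 370.1 against 309 to 319 FPKM (0.832). BL_R1 was low for VIT_18s0001g05440, at 28.9 against 34.5 to 35.7 FPKM (0.8293). These 3 libraries are among the 4 that the study left out.

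Aki_R2, a retained library, was high for the cineole synthase VIT_00s0372g00040, at 13.8 against 7.75 to 8.38 FPKM (0.896). The other 4 sets, each with a ratio of 1, were traces in a single library: VIT_00s0372g00030 in BL_R4 (0.318 FPKM), VIT_00s0372g00060 in Aki_R4 (0.196 FPKM) and in BL_R1 (0.184 FPKM), and VIT_00s0372g00080 in NTC_R1 (0.109 FPKM). Each of these was at 0 in the other 3 libraries of its group.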

How the results depend on the processing

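No gene result of the named members reversed: of 1288 values for 54 gene results under 24 alternatives, 1145 stayed on their side of the adjusted p and 143 lost it, and 26 of the 54 passed under every alternative in which they could be fitted. Some members were named because they passed over NTC in both library sets, so the tally favours stable results. VIT_18s0001g05180, VIT_18s0001g05480 and VIT_18s0001g05310, which did not pass with all 16 libraries, are not in it. The DEG counts moved as follows. With all 16 libraries Aki over NTC had 1 DEG in place of 3 and 1 member past the adjusted p in place of 6, BF had 1 (downregulated) in place of 0, and BL kept a count of 1 that was VIT_00s0372g00040, lower, in place of VIT_18s0001g04590, higher. With a pseudocount of 1 FPKM the counts were 1 for Aki over NTC, 0 for BL, 1 for Aki over BL (in place of 3) and 2 for Aki over BF (in place of 4), which is how a larger pseudocount acts on low genes. With 0.01 FPKM BL had 2, and after median-of-ratios rescaling 0. The gene results include VIT_00s0372g00070 in Aki over BL and Aki over BF, and all counts in this section include it wherever it passed. It entered the tested set through Aki leaves alone, so its part in them supports nothing. Counts without it were made for the main fit only.

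Replicate numbers stand for different plants in each group, and the main fit has no term for them. Of 24 same-numbered pairs, 10 had a correlation of deviations over 0.1, within a range of -0.35 to 0.37. Pairs of different numbers ranged from -0.42 to 0.45. Even so, 10 of 16 libraries correlated best with their own number, although each had fewer partners of its own number than of others. Whether the number marks a shared factor was not tested. With the number as a block, Aki over NTC had 1 DEG with the retained libraries and 1 with all 16, and 3 members past the adjusted p in both. BL had 2 DEGs with the block over retained libraries, and BF had 1 with the block over all 16.

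Without 1 retained library at a time, DEGs numbered 1 to 4 for Aki over NTC, 0 to 1 for BL, 0 to 1 for BF, 1 to 3 for Aki over BL, 2 to 4 for Aki over BF and 0 to 0 for BL over BF. Members past the adjusted p numbered 3 to 8 for Aki, 9 to 17 for BL and 8 to 15 for BF. The low ends came without Aki_R3 or NTC_R1 (Aki DEGs), Aki_R3 (Aki by adjusted p), BL_R2 or BL_R4 (BL DEGs), NTC_R4 (BL by adjusted p), BF_R3 or NTC_R4 (BF by adjusted p) and Aki_R2 (Aki over either Bacillus product), and BF had its 1 DEG without Aki_R2 or BF_R3. The cause was not tested.

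The libraries left out were chosen by the study from expression, and 3 libraries per group limit the tests. Leaving out libraries that deviate narrows the spread within groups, so adjusted p values of the retained libraries can be too small. By adjusted p alone, Aki over NTC had 861 genes higher and 728 lower with the retained libraries, against 166 and 22 with all 16. Unique mapping drops fragments shared by near-identical copies, 3 fragments are the smallest amount taken as told from 0, and 67 members lay under the filter.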
